A study of Mus musculus with 6 samples.

Results

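The collagen chain genes were examined in 6 mouse mammary cell lines. They were taken as the protein-coding rows of the deposited table whose symbol is Col, a number, the letter a and a number, with nothing after it, which gave 39 of 23449 genes. By the make-up of their protein 10 are fibrillar (types I, II, V, XI, XXIV and XXVII), 6 belong to the basement membrane type IV, 5 to type VI and 18 to other types. The rule uses names only, and no measured value. The 16IC lines (16IC 1, 16IC 2 and 16IC 3, titled 16IC_1984, 16IC_4982 and 16IC_7391) have the genotype 16IC/WT. The EIC lines (EIC 1, EIC 2 and EIC 3, titled EIC_4026, EIC_NT and EIC_7559) have the genotype EIC/WT. Both groups share the FVB/N strain, female sex and mammary origin, and grew in DMEM with 10% FBS, EGF, insulin, pituitary extract and 10 ug/mL doxycycline. The series title names the HER2 splice form HER2∆16. As background known of such models, doxycycline induces that form in 16IC and full-length wild-type ErbB2 in EIC, which the labels do not spell out. Each line is 1 library, the labels do not say from which animals the lines came, and by the labels no line without doxycycline was analysed here. What NT stands for in the title of EIC 2 is not known, and its doxycycline label is the same as that of the other lines. An effect of the receptor form and other differences between lines cannot be told apart, and p-values measure the spread between these libraries.

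Collagens are extracellular proteins built from 3 chains wound into a helix. The helix needs glycine, the smallest amino acid, at a fixed spacing with a pair of other amino acids between, so a collagen gene carries a glycine codon (GGN, where N is any base) at the same spacing over long stretches. Such a glycine codon with the pair after it is called a triplet here. Fibrillar collagens form the banded fibres of connective tissue and are mostly made by fibroblasts. Type IV forms the sheet-like network of the basement membrane that epithelial and endothelial cells rest on, and type VI forms beaded filaments around cells. The remaining types bind to fibrils, anchor basement membranes or span the cell membrane. In the mammary gland, epithelial cells sit on a basement membrane and fibrillar collagen lies in the stroma around it.

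The fibrillar class stands out in the genes themselves by its long unbroken stretches of triplets, while the other classes overlap. A coding exon is printed for each of 4 members that lead the results below, taken as the first one that lies inside the gene's longest unbroken run of GGN triplets and starts with GGN. The sequences are from GENCODE M21 on GRCm38, 5′ to 3′ on the gene's strand, and capitals mark the first 2 bases of each GGN codon of the repeat.
Col4a1, chr8:11247006-11247095, minus strand: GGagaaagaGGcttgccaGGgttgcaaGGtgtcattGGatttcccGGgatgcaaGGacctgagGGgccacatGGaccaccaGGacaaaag
Col5a1, chr2:27965251-27965304, plus strand: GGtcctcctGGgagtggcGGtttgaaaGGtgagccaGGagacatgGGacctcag
Col11a1, chr3:114108281-114108334, plus strand: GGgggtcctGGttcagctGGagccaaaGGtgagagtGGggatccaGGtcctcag
Col6a1, chr10:76719623-76719676, minus strand: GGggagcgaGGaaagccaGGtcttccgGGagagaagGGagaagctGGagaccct
The exons of Col5a1, Col11a1 and Col6a1 are 54 bases long and hold 6 triplets, while that of Col4a1 is 90 bases long and holds 10. Over the longest coding transcript of each gene, 281 of 598 coding exons of the fibrillar genes (47.0%) were 54 bases long, against 12 of 296 (4.05%) in the basement membrane genes, 14 of 181 (7.73%) in type VI and 117 of 739 (15.8%) in the other types. Among the other types, Col9a1, Col9a2, Col9a3 and Col22a1 came near the fibrillar share, at 36.8 to 44.4%. The longest unbroken run had 216 to 339 triplets in the fibrillar genes, 39 to 66 in the basement membrane genes, 37 to 87 in type VI and 28 to 113 in the others. The type IV coding sequences were broken into 16 to 24 runs of at least 4 triplets, those of the fibrillar genes into 2 to 4. These structures describe the genes and do not depend on the libraries.

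**Figure D1:**
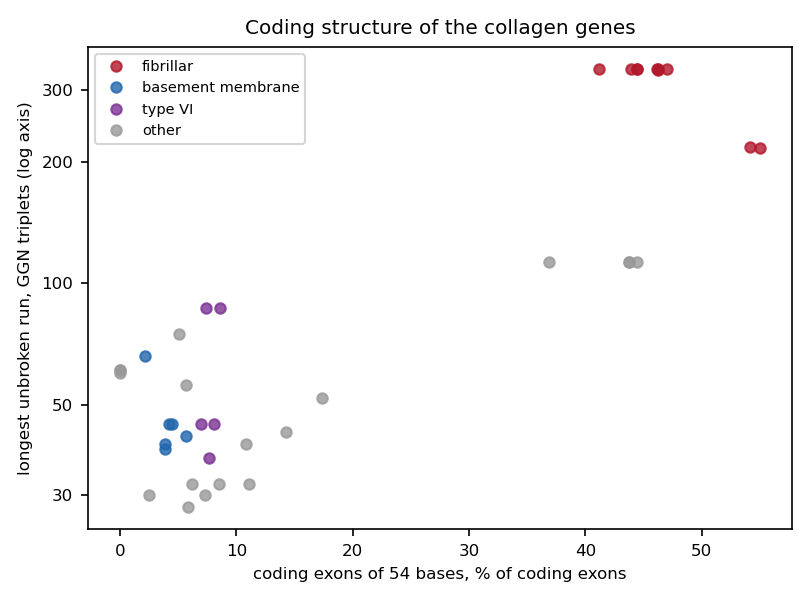
Coding structure of the 39 collagen genes in GENCODE M21, as the share of coding exons that are 54 bases long (x axis, percent) and the longest unbroken run of GGN triplets (y axis, log scale); each point is a gene, coloured by class. The 10 fibrillar genes lie at the upper right with runs of 216 or more, and the 6 basement membrane genes at the lower left with runs of 39 to 66.

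Total counts per library were 15621563 to 16091846 in 16IC and 16742109 to 17468498 in EIC. Across the 13698 genes tested, which are not independent of each other, Spearman's rho between lines was 0.989 for 16IC 1 and 16IC 2, 0.874 and 0.880 for 16IC 3 with each of these, 0.979 for EIC 1 and EIC 3, and 0.925 and 0.917 for EIC 2 with each of these. So 16IC 3 and EIC 2 stood apart within their groups, and collagen fold changes that moved by over 1.5 times without either are given with that value. Counts were scaled to CPM, counts scaled to a common library size by TMM, to compare a gene between lines. The authors' deposited FPKM, which also divides by gene length, was used to compare levels between genes.

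Collagen genes took 0.430, 0.552 and 0.363% of all counts in 16IC 1 to 3, against 0.223, 0.384 and 0.258% in EIC 1 to 3, and the groups overlapped. What these collagens were differed from line to line. Col18a1, Col4a1, Col4a2 and Col8a1 were the 4 highest members by FPKM in 16IC 1 and in 16IC 2. In 16IC 3 the highest was Col16a1, with 20.4% of the summed collagen FPKM, followed by Col18a1, Col4a6 and Col6a1. Col18a1 led in EIC 1 and EIC 3, with 21.8 and 33.7% of the sum, and Col6a1 led in EIC 2 with 43.4%.

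**Figure D2:**
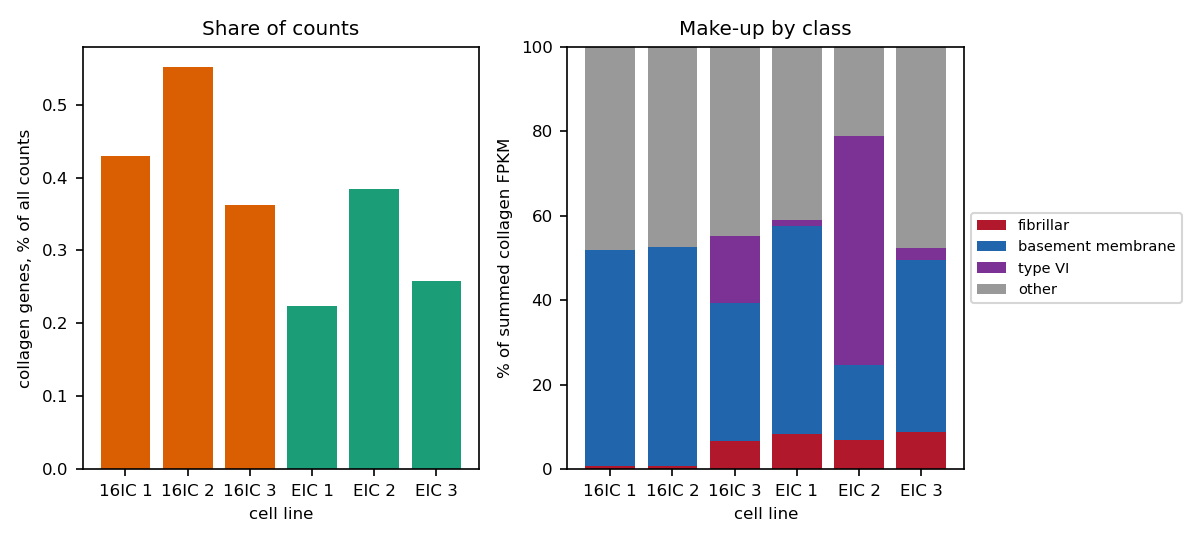
Left, counts of all 39 collagen genes as a percent of all counts in each line; right, share of each class in the summed collagen FPKM of each line, in percent, with the 16IC lines left of the EIC lines. Type VI makes up 54.3% of the sum in EIC 2 and 16.0% in 16IC 3, and under 3% in the other 4 lines.

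Split by class, type IV genes made up 51.3, 51.9 and 32.6% of the summed collagen FPKM in 16IC 1 to 3, against 49.4, 17.9 and 40.9% in EIC 1 to 3. Fibrillar genes made up 0.720, 0.746 and 6.67% in 16IC 1 to 3, against 8.22, 6.80 and 8.73% in EIC 1 to 3. By FPKM every 16IC line had a smaller fibrillar share than every EIC line, narrowly so for 16IC 3. By counts the groups overlapped, with fibrillar genes at 0.898, 0.9003 and 10.2% of collagen counts in 16IC 1 to 3, against 9.57, 9.29 and 10.4% in EIC 1 to 3. Members with an FPKM of at least 1 numbered 12, 13 and 19 in 16IC 1 to 3, against 12, 17 and 11 in EIC 1 to 3. The levels of collagen genes were more uneven across lines than those of most genes. The highest line exceeded the lowest by a median of 22.4-fold in CPM over the 23 members that passed the count filter, against 2.48-fold over all 13698 genes that did, and by over 10-fold in 17 members (73.9%), against 16.6% of all genes. The line 16IC 3 was the highest of the 6 for 13 of the 23 members (56.5%), against 25.5% of all genes tested. EIC 2 was the lowest for 9 members (39.1%) and the highest for 5, against 20.8% and 21.5% of all genes tested.

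**Figure D3:**
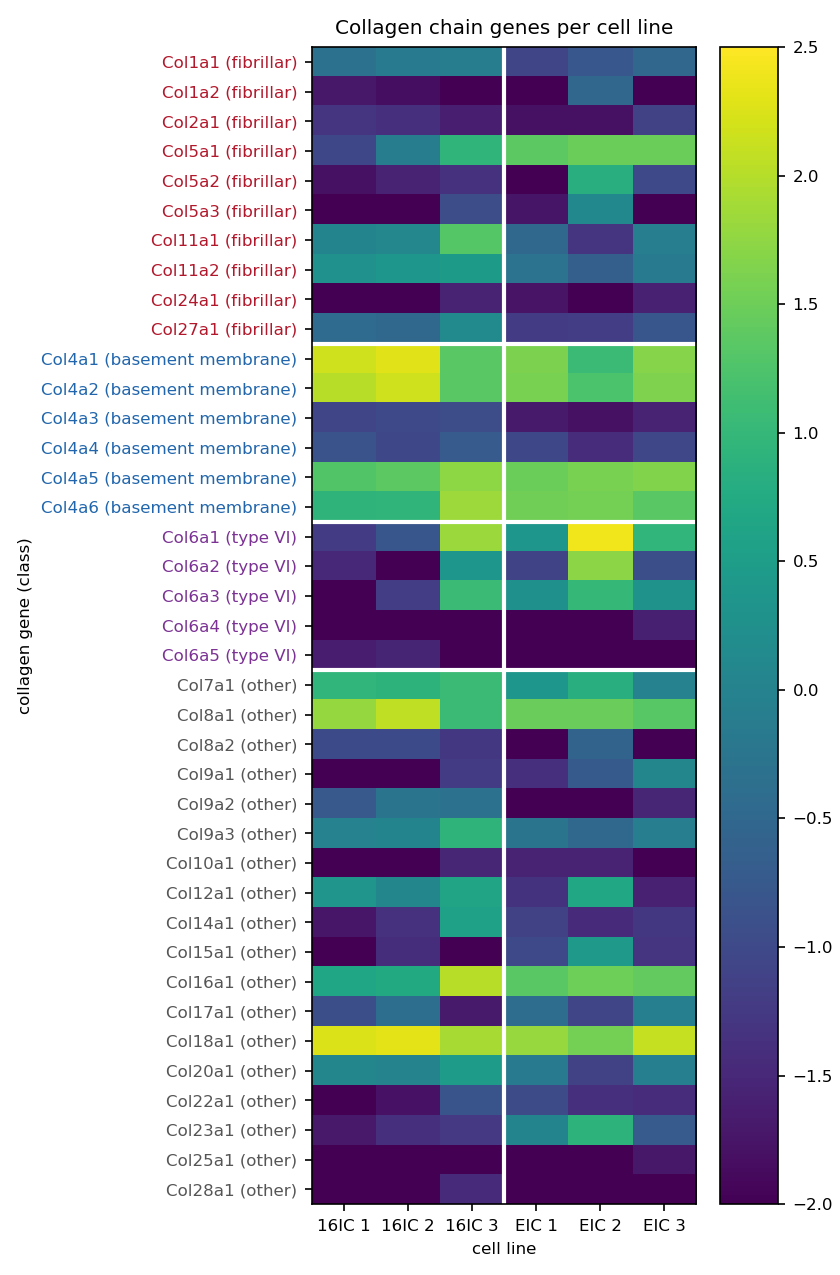
Deposited FPKM of the 39 collagen genes (rows, by class) in the 6 lines (columns, 16IC left of EIC), shown as log10 of FPKM plus 0.01. Col4a1, Col4a2, Col8a1 and Col18a1 are bright in 16IC 1 and 16IC 2, Col16a1 in 16IC 3, and Col6a1 and Col6a2 in EIC 2, while Col1a1 and Col1a2 stay below 1 FPKM in all 6 lines.

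The 16IC lines were then set against the EIC lines gene by gene. Among the collagen genes 9 members, such as Col11a2, Col27a1 and Col7a1, were higher in every 16IC line than in every EIC line (39.1% of the members tested, against 17.2% of all genes tested). In 2, Col5a1 and Col23a1, every 16IC line was lower (8.7% of the members, against 14.2% of all genes). Col4a3, among the 9, and Col23a1 passed the count filter only through the group where they were high. These shares are therefore not free of the filter, which was applied to all genes alike. At an adjusted p under 0.05 edgeR (quasi-likelihood, Benjamini-Hochberg over all genes) called 0 of the 23 members tested, where it called 2.45% of all 13698 genes, 1.25% higher and 1.2% lower in 16IC. With p not adjusted, it had 7 members under 0.05 (30.4%), against 22.7% of all genes. The median log2 fold change, 16IC over EIC, was 1.06 over the 23 members and -0.00 over all genes. Limma-voom called 1 member (adjusted p = 0.0487, Col11a2), with 2.1% of all genes called, and DESeq2 called 7, with 15.3% of all genes called, and gave no adjusted p for another 5. The 7 were Col1a1, Col4a3, Col9a3, Col11a2 and Col27a1, higher in 16IC, and Col5a1 and Col23a1, lower.

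**Figure D4:**
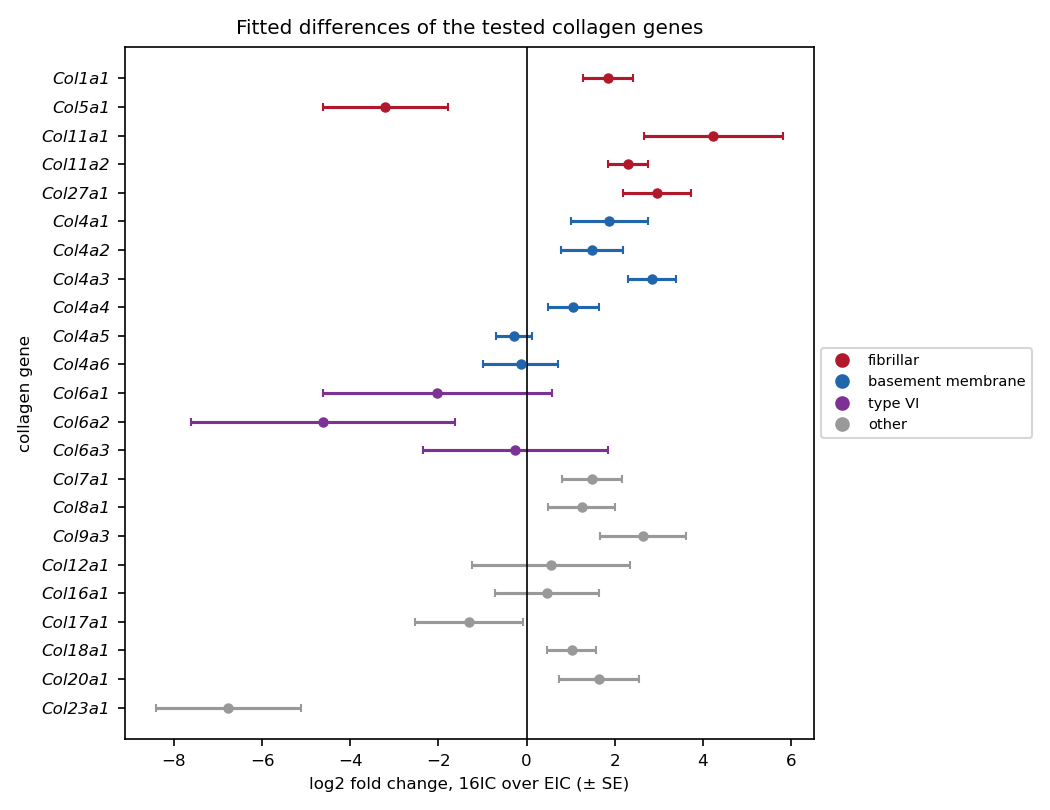
Fitted log2 fold change, 16IC over EIC, with its standard error, for the 23 collagen genes tested (3 lines per group), coloured by class. The widest errors belong to the 3 type VI genes (SE 2.10 to 2.99), and no member passed the edgeR test.

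The most abundant basement membrane genes by summed FPKM over the 6 lines were Col4a1 and Col4a2, whose chains together form the type IV network found in nearly all basement membranes. Col4a1 (ENSMUSG00000031502) had 18923, 24851 and 2525 counts in 16IC 1 to 3 and 5594, 1517 and 5765 counts in EIC 1 to 3. Col4a2 (ENSMUSG00000031503) had 11671, 16463 and 2319 counts in 16IC 1 to 3 and 4722, 1952 and 4522 counts in EIC 1 to 3. Both were highest in 16IC 2 and 16IC 1, while 16IC 3 lay below EIC 1 and EIC 3 and above EIC 2, so the groups overlapped. Col4a1 averaged 941 ± 699.8 CPM in 16IC and 256 ± 144 CPM in EIC (errors are SD over n = 3 lines throughout), a log2 fold change of 1.88 (SE 0.88, edgeR adjusted p = 0.266). Col4a2 averaged 620.3 ± 434 CPM in 16IC and 223 ± 91.3 CPM in EIC, a log2 fold change of 1.48 (SE 0.71, edgeR adjusted p = 0.277). With 16IC 3 left out, Col4a2 had a log2 fold change of 1.94 and edgeR called it (adjusted p = 0.0415). The fit without 16IC 3, here and below, called 13.4% of all genes tested. It left only 16IC 1 and 16IC 2 in their group, whose rho was 0.989. Per length, the FPKM ratio of Col4a1 to Col4a2 was 1.44, 1.34 and 0.966 in 16IC 1 to 3, against 1.05, 0.689 and 1.13 in EIC 1 to 3, and again 16IC 1 and 16IC 2 were the highest.

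These 2 genes lie head to head on chromosome 8 of mm10, Col4a1 from 11198423 to 11312826 on the minus strand and Col4a2 from 11312805 to 11449287 on the plus strand. Their annotated gene bodies overlap by 22 bases at the starts. The windows from 250 bases before to 50 after the RefSeq starts (GRCm38.p6) share 78 bases, from 11312777 to 11312854. Both windows hold the GC box GGGCGG and the CCAAT box on 1 strand or the other, and neither holds the TATA box TATAAA. Over all 32851 such windows these motifs occurred in 35.7, 37.4 and 13.6%. Counted per gene, over the 27025 genes with a window, the shares were 38.2, 41.1 and 15.7%. Among the 31 collagen genes with a window, 21 held the GC box, 13 the CCAAT box and 3, Col10a1, Col11a2 and Col17a1, the TATA box.

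The next head-to-head pair, Col4a5 and Col4a6, encodes chains that occur together in the basement membranes of skin and smooth muscle. They lie 1308 bases apart on chromosome X. Col4a5 had 2162, 2664 and 5549 counts in 16IC 1 to 3 and 3785, 4631 and 4874 counts in EIC 1 to 3. Col4a6 had 1133, 1184 and 8393 counts in 16IC 1 to 3 and 4829, 4993 and 2832 counts in EIC 1 to 3. Both genes were lowest in 16IC 1 and 16IC 2 and highest in 16IC 3, the reverse of the order of these lines for Col4a1 and Col4a2. The FPKM ratio of Col4a1 to Col4a5 was 7.88 and 8.40 in 16IC 1 and 16IC 2 and 0.410 in 16IC 3, against 1.33, 0.295 and 1.06 in EIC 1 to 3. Between the groups Col4a5 averaged 218 ± 124 CPM in 16IC and 266 ± 45.0 CPM in EIC (log2 fold change -0.29, SE 0.41, edgeR adjusted p = 0.726). Col4a6 averaged 228 ± 274 CPM in 16IC and 251 ± 65.7 CPM in EIC (log2 fold change -0.13, SE 0.84, edgeR adjusted p = 0.942). With 16IC 3 left out, Col4a6 had a log2 fold change of -1.84 and edgeR called it lower (adjusted p = 0.0193).

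Col4a3 and Col4a4, whose chains join that of Col4a5 in the filter of the kidney, start 71 bases apart on chromosome 1 and were barely expressed. Col4a3 had 13, 15 and 16 counts in 16IC 1 to 3 and 2, 1 and 3 counts in EIC 1 to 3. Col4a4 had 24, 15 and 31 counts in 16IC 1 to 3 and 16, 5 and 14 counts in EIC 1 to 3. Both were higher in every 16IC line by CPM, and neither exceeded 0.189 FPKM in any line. Col4a3 had the smallest adjusted p of all members (log2 fold change 2.85, SE 0.55, edgeR adjusted p = 0.0565). It passed the count filter only through the 16IC lines, where it was high.

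Among the fibrillar genes the main chains of connective tissue were close to absent. Col1a1, the chain that makes up most of type I collagen, had 52, 78 and 77 counts in 16IC 1 to 3 and 9, 18 and 32 counts in EIC 1 to 3. Its partner Col1a2 had 2, 1 and 0 counts in 16IC 1 to 3 and 0, 64 and 0 counts in EIC 1 to 3. Col1a1 was higher in every 16IC line, but at 0.468 to 0.758 FPKM in 16IC and 0.0758 to 0.301 FPKM in EIC, and Col1a2 reached 0.292 FPKM in EIC 2 alone. The log2 fold change of Col1a1 was 1.84 (SE 0.57, edgeR adjusted p = 0.131). The cartilage gene Col2a1 had 6, 5 and 2 counts in 16IC 1 to 3 and 1, 1 and 10 counts in EIC 1 to 3.

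Col5a1, whose chain helps start and thin collagen fibrils, was the leading fibrillar gene of the EIC lines. It had 12, 113 and 1133 counts in 16IC 1 to 3 and 3567, 4567 and 4309 counts in EIC 1 to 3. All EIC lines lay above all 16IC lines, and within 16IC the counts ranged from near silence in 16IC 1 to 1133 in 16IC 3. Col5a1 averaged 27.04 ± 40.3 CPM in 16IC and 249 ± 39.3 CPM in EIC, a log2 fold change of -3.20 (SE 1.41, edgeR adjusted p = 0.247). DESeq2 called it (adjusted p = 0.0430), as did edgeR without 16IC 3, where the log2 fold change was -6.03 (adjusted p = 0.0236). Its partner chains had over 100 counts in EIC 2 alone. Col5a2 had 1, 3 and 5 counts in 16IC 1 to 3 and 0, 1121 and 14 counts in EIC 1 to 3, and Col5a3 had 0, 0 and 11 counts in 16IC 1 to 3 and 1, 148 and 0 counts in EIC 1 to 3.

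The type XI genes, known from cartilage and related to type V, had higher values in 16IC, opposite to Col5a1. Col11a1 had 232, 259 and 4002 counts in 16IC 1 to 3 and 75, 9 and 169 counts in EIC 1 to 3. Col11a2 had 221, 270 and 294 counts in 16IC 1 to 3 and 63, 27 and 75 counts in EIC 1 to 3. Both were higher in every 16IC line, Col11a1 by far in 16IC 3 and Col11a2 evenly over the 3 lines. Col11a1 averaged 96.5 ± 141 CPM in 16IC and 5.11 ± 5.03 CPM in EIC (log2 fold change 4.24, SE 1.58, edgeR adjusted p = 0.183), and its log2 fold change was 1.54 when 16IC 3 was left out (adjusted p = 0.372). Col11a2 averaged 16.3 ± 2.89 CPM in 16IC and 3.29 ± 1.54 CPM in EIC (log2 fold change 2.30, SE 0.45, edgeR adjusted p = 0.0586), and limma-voom, DESeq2 and edgeR without 16IC 3 called it (adjusted p = 0.0487, 5.91e-05 and 0.0448). The FPKM ratio of Col5a1 to Col11a1 was 0.0776, 0.655 and 0.425 in 16IC 1 to 3, against 71.4, 762 and 38.3 in EIC 1 to 3. Col11a1 thus exceeded Col5a1 per length in all 3 16IC lines, and Col5a1 exceeded Col11a1 in all 3 EIC lines. This ratio was formed after the values were seen. Col27a1, a fibrillar gene of cartilage with a shorter helix, had 79, 70 and 270 counts in 16IC 1 to 3 and 12, 13 and 31 counts in EIC 1 to 3 (log2 fold change 2.96, SE 0.78, edgeR adjusted p = 0.0965), and 1.99 on the log2 scale with 16IC 3 left out. Its relative Col24a1 had 0, 0 and 2 counts in 16IC 1 to 3 and 1, 0 and 2 counts in EIC 1 to 3.

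**Figure D5:**
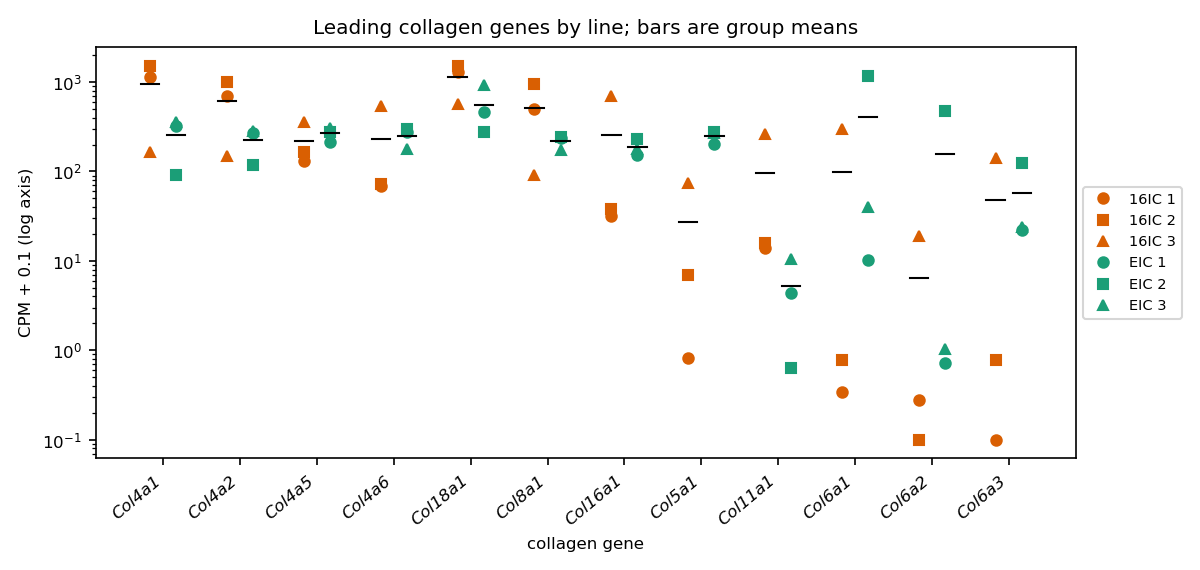
CPM plus 0.1 on a log axis for 12 leading collagen genes in each of the 6 lines, with 16IC left of EIC for each gene; marker shapes stand for the lines, and short bars for group means. For Col4a1, Col4a2 and Col8a1 the line 16IC 3 lies below 16IC 1 and 16IC 2, and for Col4a6, Col16a1, Col11a1 and the type VI genes it lies above them.

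Type VI genes marked single lines rather than groups. Their filaments need the chains of Col6a1, Col6a2 and another such as Col6a3. Col6a1 had 4, 11 and 4579 counts in 16IC 1 to 3 and 179, 19264 and 642 counts in EIC 1 to 3. Col6a2 had 3, 0 and 292 counts in 16IC 1 to 3 and 11, 7780 and 15 counts in EIC 1 to 3. Col6a3 had 0, 11 and 2188 counts in 16IC 1 to 3 and 390, 2069 and 380 counts in EIC 1 to 3. All 3 genes were nearly silent in 16IC 1 and 16IC 2 and were high in 16IC 3 and EIC 2. The chains were not balanced per length. Col6a2 had the lowest FPKM of the 3 in 16IC 3, EIC 1 and EIC 3. In EIC 2 the lowest was Col6a3, with an FPKM ratio of Col6a1 to Col6a3 of 25.4. The gene length was 8326 bases for Col6a2 and 4380 for Col6a1, with coding sequences of 3102 and 3075 bases. Dividing by gene length thus lowers Col6a2 more than Col6a1. The FPKM ratio of Col6a1 to Col6a2 was 29.8 in 16IC 3, against 30.9, 4.71 and 81.4 in EIC 1 to 3, and in 16IC 1 and 16IC 2 both genes had at most 11 counts. Col6a1 and Col6a2 lie 85161 bases apart on chromosome 10, on the same strand.

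No type VI difference between the groups passed the test, and the sign of all 3 turned without EIC 2. Col6a1 averaged 99.3 ± 171 CPM in 16IC and 403 ± 655 CPM in EIC (log2 fold change -2.02, SE 2.59, edgeR adjusted p = 0.694), and 1.98 without EIC 2 (adjusted p = 0.720). Col6a2 averaged 6.37 ± 10.9 CPM in 16IC and 157 ± 269.7 CPM in EIC (log2 fold change -4.62, SE 2.99, edgeR adjusted p = 0.412), and 3.01 without EIC 2 (adjusted p = 0.541). Col6a3 averaged 47.5 ± 81.7 CPM in 16IC and 56.8 ± 58.6 CPM in EIC (log2 fold change -0.26, SE 2.10, edgeR adjusted p = 0.955), and 1.04 without EIC 2 (adjusted p = 0.849). With 16IC 3 left out, Col6a3 had a log2 fold change of -7.38 and edgeR called it lower (adjusted p = 0.0422), while those of Col6a1 and Col6a2 were -9.77 and -10.64 and not called (adjusted p = 0.0939 and 0.183). The remaining type VI genes were at or near 0. Col6a4 had 2 counts in EIC 3 and 0 in the other lines, and Col6a5 had 2 and 3 counts in 16IC 1 and 16IC 2 and 0 in the other lines.

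Of the other types, Col18a1 had the highest FPKM summed over the lines. Its chain sits in basement membranes, carries heparan sulfate and is the source of the fragment endostatin. Col18a1 had 21686, 24500 and 8731 counts in 16IC 1 to 3 and 8159, 4542 and 14694 counts in EIC 1 to 3. Col8a1, a network-forming chain known from blood vessels and the cornea, had 8277, 15706 and 1390 counts in 16IC 1 to 3 and 4155, 4042 and 2758 counts in EIC 1 to 3. Like Col4a1 and Col4a2, both were highest in 16IC 2 and 16IC 1, with 16IC 3 inside or below the EIC range. Col18a1 averaged 1124 ± 492 CPM in 16IC and 551 ± 329 CPM in EIC (log2 fold change 1.03, SE 0.56, edgeR adjusted p = 0.330). Col8a1 averaged 517 ± 436 CPM in 16IC and 217 ± 39.7 CPM in EIC (log2 fold change 1.25, SE 0.76, edgeR adjusted p = 0.381), and edgeR called it higher without 16IC 3 (log2 fold change 1.75, adjusted p = 0.0306). Without 16IC 2 it was 0.44 (adjusted p = 0.791).

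Col16a1, which binds to fibrils and to basement membranes, had 521, 616 and 10834 counts in 16IC 1 to 3 and 2669, 3789 and 2861 counts in EIC 1 to 3. It was lowest in 16IC 1 and 16IC 2 and highest in 16IC 3, as Col4a6 was. Its mean was 257 ± 386 CPM in 16IC and 186 ± 38.5 CPM in EIC (log2 fold change 0.47, SE 1.17, edgeR adjusted p = 0.848). Without 16IC 3 the direction turned, to a log2 fold change of -2.43, and edgeR called it lower (adjusted p = 0.00864). Col7a1, the chain of the anchoring fibrils under epithelia, had 1621, 1376 and 1856 counts in 16IC 1 to 3 and 427, 1215 and 162 counts in EIC 1 to 3. It was higher in every 16IC line, at 101 ± 18.3 CPM in 16IC and 35.8 ± 33.0 CPM in EIC (log2 fold change 1.49, SE 0.68, edgeR adjusted p = 0.259), and 2.54 on the log2 scale with EIC 2 left out (adjusted p = 0.0669).

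Col12a1, another fibril-binding chain, had 564, 295 and 980 counts in 16IC 1 to 3 and 10, 1287 and 4 counts in EIC 1 to 3. It was expressed in all 16IC lines and in EIC 2, and nearly silent in EIC 1 and EIC 3. Its log2 fold change was 0.56 (SE 1.79, adjusted p = 0.881 by edgeR). When EIC 2 was left out it was 6.51 and called (adjusted p = 0.0451), with 1.96% of all genes called in that fit. Col9a3, a chain of the fibril-binding type IX of cartilage, had 64, 69 and 510 counts in 16IC 1 to 3 and 37, 22 and 51 counts in EIC 1 to 3. Col20a1 had 101, 88 and 239 counts in 16IC 1 to 3 and 65, 6 and 72 counts in EIC 1 to 3. Both were higher in every 16IC line and highest in 16IC 3, without passing the edgeR test (log2 fold change 2.64, SE 0.98 and 1.66, SE 0.91, adjusted p = 0.180 and 0.337). With 16IC 3 left out these were 0.87 and 1.01.

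Both membrane-spanning collagens that passed the filter had negative log2 fold changes. Col23a1 had 1, 3 and 4 counts in 16IC 1 to 3 and 110, 826 and 17 counts in EIC 1 to 3. Every EIC line lay above every 16IC line, with a wide range within EIC. Col23a1 passed the count filter only through the EIC lines. Its means were 0.168 ± 0.101 CPM in 16IC and 19.0 ± 26.7 CPM in EIC (log2 fold change -6.77, SE 1.64, edgeR adjusted p = 0.0847), and DESeq2 called it (adjusted p = 4.97e-06). Its log2 fold change was -4.41 with EIC 2 left out. Col17a1, the hemidesmosome collagen that ties epithelial cells to the basement membrane, had 11, 40 and 1 counts in 16IC 1 to 3 and 42, 8 and 81 counts in EIC 1 to 3, which overlapped.

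The other 16 members did not pass the count filter, which asks for about 10 counts in at least 3 libraries, and 6 of them had under 10 counts in every line. In 4 of the 16 a single line had at least 100 counts. Besides Col5a2 and Col5a3 these were Col14a1, a fibril-binding chain with 1, 4 and 407 counts in 16IC 1 to 3 and 8, 3 and 5 counts in EIC 1 to 3, and Col15a1, a basement membrane chain related to Col18a1 with 0, 3 and 0 counts in 16IC 1 to 3 and 10, 290 and 4 counts in EIC 1 to 3. The high line was 16IC 3 for Col14a1 and EIC 2 for the other 3 genes. Type IX chains had opposite patterns at low counts. Col9a2 had 9, 28 and 23 counts in 16IC 1 to 3 and 0, 0 and 1 counts in EIC 1 to 3, and Col9a1 had 0, 0 and 4 counts in 16IC 1 to 3 and 3, 16 and 95 counts in EIC 1 to 3. The others stayed near 0 in most lines. Col8a2, partner of Col8a1, had 7, 7 and 3 counts in 16IC 1 to 3 and 0, 21 and 0 counts in EIC 1 to 3. Col22a1 had 0, 1 and 20 counts in 16IC 1 to 3 and 17, 5 and 4 counts in EIC 1 to 3. Col10a1, the gene of cartilage being turned into bone, had 1 count in each of 16IC 3, EIC 1 and EIC 2 and 0 in the other lines. Col25a1 had 2 counts in EIC 3 alone and Col28a1 2 counts in 16IC 3 alone.

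The calls among collagen genes depended on single lines. Without 16IC 3 edgeR called 8 of 25 members tested, 4 higher in 16IC (Col4a2, Col4a3, Col8a1 and Col11a2) and 4 lower (Col4a6, Col5a1, Col6a3 and Col16a1), while 13.4% of all genes tested were called in that fit. The spread within 16IC there came from 16IC 1 and 16IC 2 alone, the most alike pair of lines (rho 0.989). With 16IC 1 and 16IC 2 averaged to 1 sample and 16IC 3 kept, edgeR called 0 of all genes. Without 16IC 1, 16IC 2, EIC 1 or EIC 3 it called 0 members, but in those fits it also called only 5, 0, 0 and 0 of all genes (0.0351, 0, 0 and 0%). Under 0.05 before adjustment were 9, 6, 8 and 8 members (32.1, 22.2, 29.6 and 30.8% of those tested), against 15.8, 15.8, 18.3 and 16.3% of all genes, and only edgeR was run in this way. In the table the authors deposited, 8 of the 39 members have an adjusted p under 0.05, against 8.63% of all 23449 genes. In the authors' deposited table they are Col1a1, Col4a3, Col9a2, Col9a3, Col11a2 and Col27a1, higher in 16IC, and Col9a1 and Col23a1, lower. For 10 members, among them Col5a1, Col11a1, Col16a1, Col6a1, Col6a2 and Col6a3, that table gives no p-value.

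Genes that make and process collagen mostly had lower values in 16IC. Of 24 tested, 20 had values below 0 on the log2 scale, and the median log2 fold change was -1.28, against -0.00 over all genes. In 11 every 16IC line lay below every EIC line and in 0 above, where 14.2 and 17.2% of all genes tested did so. The edgeR and limma-voom tests called 0, with 13 and 14 under 0.05 before adjustment, and DESeq2 called 8, all lower. Over all genes edgeR and limma-voom called 2.45 and 2.1%, with 22.7 and 23.1% under 0.05 before adjustment, and DESeq2 called 15.3%. The 3 with the smallest p were Adamts14, which trims 1 end of fibrillar collagens, the crosslinking enzyme gene Loxl1, and Pcolce2, which enhances a separate step, the trimming of the other end. Adamts14 averaged 1.72 ± 0.917 CPM in 16IC and 24.7 ± 15.4 CPM in EIC (edgeR adjusted p = 0.0554). Loxl1 averaged 1.63 ± 0.987 CPM in 16IC and 10.9 ± 4.51 CPM in EIC (edgeR adjusted p = 0.0833). Pcolce2 averaged 33.9 ± 9.45 CPM in 16IC and 126 ± 77.1 CPM in EIC (edgeR adjusted p = 0.0878). All 3 were lower in every 16IC line. Chosen after the values were seen, P4hb, a subunit of the prolyl hydroxylase that stabilises the helix, averaged 559 ± 181 CPM in 16IC and 1359.5 ± 347 CPM in EIC (log2 fold change -1.28, SE 0.33, edgeR adjusted p = 0.0932).

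Of 7 collagen receptor genes tested edgeR and limma-voom called 0, with 4 and 3 under 0.05 before adjustment, and DESeq2 called 2 higher and 2 lower, beside 22.7, 23.1 and 15.3% of all genes. Itga2, an integrin subunit that binds collagen, averaged 211 ± 131 CPM in 16IC and 39.4 ± 10.98 CPM in EIC (edgeR adjusted p = 0.0884). The epithelial receptor gene Ddr1 averaged 375 ± 195 CPM in 16IC and 153 ± 14.3 CPM in EIC (edgeR adjusted p = 0.116). Both were higher in every 16IC line. Ddr2, a receptor for fibrillar collagens known from mesenchymal cells, averaged 0.987 ± 0.607 CPM in 16IC and 20.1 ± 17.7 CPM in EIC (edgeR adjusted p = 0.0618) and was lower in every 16IC line.

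Of 13 basement membrane partners tested 3 were higher and 2 lower in every 16IC line, against 17.2 and 14.2% of all genes tested. Before adjustment 6 were under 0.05 by edgeR, against 22.7% of all genes, and edgeR called 1, against 2.45%. Nid1, encoding nidogen, which links laminin to type IV collagen, fell to 10.2, 14.4 and 9.02 CPM in 16IC 1 to 3, against 154, 366 and 206 CPM in EIC 1 to 3 (log2 fold change -4.43, SE 0.42, edgeR adjusted p = 0.0249). Leaving out 16IC 1, 16IC 2, EIC 1 or EIC 3 ended that call, at adjusted p = 0.121, 0.120, 0.0942 and 0.151, with log2 fold changes of -4.37, -4.65, -4.67 and -4.55. In those fits edgeR called only 5, 0, 0 and 0 of all genes tested. Sparc, a collagen-binding glycoprotein gene, averaged 13.4 ± 15.5 CPM in 16IC and 468 ± 227 CPM in EIC (edgeR adjusted p = 0.0679). Sparc was lower in every 16IC line, and the median log2 fold change of the 13 was -0.00.

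Of 8 fibril-binding proteoglycan and glycoprotein genes edgeR and limma-voom called 0, with 2 and 3 under 0.05 before adjustment, and DESeq2 called 1 higher and 1 lower, beside the same 22.7, 23.1 and 15.3% of all genes. Thbs1, encoding thrombospondin, averaged 3510.3 ± 838 CPM in 16IC and 889 ± 386 CPM in EIC (edgeR adjusted p = 0.0709) and was higher in every 16IC line. The median log2 fold change was 0.16.

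Markers of other cell types were set beside these values, and in such bulk libraries fewer cells of a type and less RNA per cell cannot be told apart. Of 13 fibroblast markers 9 were in the table, and their summed level was 8.49 to 32.6 CPM in 16IC, highest in 16IC 3, and 104 to 287 CPM in EIC. Fbln1, encoding the matrix protein fibulin, carried much of the EIC sum and fell to 0.181, 1.96 and 0.649 CPM in 16IC 1 to 3, against 93.2, 81.0 and 180.4 CPM in EIC 1 to 3 (log2 fold change -6.98, SE 0.89, edgeR adjusted p = 0.0360). Pdgfra, a growth factor receptor gene, stood at 4.04, 4.22 and 15.4 CPM in 16IC 1 to 3, against 87.8, 1.98 and 99.97 CPM in EIC 1 to 3, which overlapped. The Fbln1 call ended without 16IC 1, 16IC 2, EIC 1 or EIC 3 (adjusted p = 0.104 to 0.151). In those fits edgeR called only 5, 0, 0 and 0 of all genes tested, and the log2 fold changes of Fbln1 were -6.49, -8.15, -7.15 and -6.55. Twist2 was lower and Postn higher in every 16IC line, neither called. Dcn was at 0 in 16IC 1 and 16IC 2, at 1.23 CPM in 16IC 3 and at 0.241 to 1.87 CPM in EIC. Of 10 luminal epithelial markers all were tested, and their summed level was 1658 CPM in 16IC 3 and 9724 and 9779 CPM in the other 16IC lines, against 2561 to 3308 CPM in EIC. Krt8 and Krt18, keratin genes of simple epithelia, made up most of that sum in 16IC 3, at 580.4 and 563 CPM. Of the 10 luminal genes 5 were higher in every 16IC line, 16IC 3 included (17.2% of all genes tested were). The edgeR test called 2 of the 10, Esrp1 and Elf5 (adjusted p = 0.0391 and 0.0462), against 2.45% of all genes tested. Limma-voom called neither (adjusted p = 0.117 and 0.183), and DESeq2 called both (adjusted p = 1.14e-14 and 5.21e-10). Leaving out any line but 16IC 3 ended both edgeR calls (adjusted p = 0.0609 to 0.165 for Esrp1 and 0.0857 to 0.172 for Elf5). Of those fits the one without EIC 2 called 1.96% of all genes tested, and the others called the 5, 0, 0 and 0 genes given above. Epcam, an epithelial adhesion gene, stood at 1159.6, 1345 and 51.1 CPM in 16IC 1 to 3, against 0.456, 1.08 and 3.79 CPM in EIC 1 to 3. Cldn4 and Cldn7 had the same order of groups, and Krt19 the opposite one. Elf5 and Cldn7 passed the count filter only through the 16IC lines, where they were high. The line 16IC 3, which had the most Col16a1, Col4a6 and Col11a1, thus lay below the EIC lines in the keratins Krt8 and Krt18 and above them in Epcam. The endothelial markers in the table summed to at most 1.10 CPM in 16IC and 3.82 CPM in EIC, and the leukocyte markers to at most 5.08 CPM in 16IC and 0.421 CPM in EIC. The part of these markers in the collagen differences was not tested.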

How the data were processed

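RNA of the 6 lines was isolated with an RNeasy kit and made into libraries with NEBNext Ultra II, per the labels' protocols. The submitters' processing notes name the builds GRCm38 and mm10 and the tools STAR, HTSeq, Trimmomatic, limma and edgeR. Tool roles, versions and settings, the strand setting and the annotation release were not found in the sources used here. Per the file headers, the authors deposited whole read counts per gene and line, a signal, FPKM, and a log2 fold change with p-value and adjusted p-value. The deposited signal equals counts divided by 1 factor per line and was read only for those factors.

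The 23449 genes were filtered with filterByExpr (minimum count 10), leaving 13698, scaled by TMM and fitted with edgeR 4.0.16 (glmQLFit and glmQLFTest) in R 4.3.3, 16IC over EIC. An adjusted p under 0.05 was called. CPM uses the TMM-scaled total of the genes tested. Alternatives used limma 3.58.1 and DESeq2 1.42.0, other scalings and filters, and each line left out. Fits were tested on simulated data with the same set spread for every gene, which does not show how they behave at the spread between these lines. The members and lists were chosen with earlier results of these data known. Every member is accounted for, with fold changes for those averaging at least 5 CPM in a group or called by some test. Markers of smooth muscle and pericytes, basal epithelium, adipocytes and chondrocytes were also listed, and edgeR called 0 of them. They are not described here, and endothelial and leukocyte markers are given as sums only. Of each remaining list the called genes and up to 3 with the smallest p are named. A gene that this rule names is not reported here. In GENCODE M21, exons of Col4a1, Col4a2, Col4a3, Col5a1 and Col9a3 overlap a gene on the opposite strand, and without the strand setting their reads cannot be told apart.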

Additional observations from a re-analysis of the deposited data

How the results depend on the processing

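The number of collagen genes called was 0 with size factors of DESeq2, upper-quartile factors, low counts unfiltered, at least 1 CPM in 3 libraries, the robust fit, and 16IC 1 and 16IC 2 averaged to 1 sample. It was 1 higher with limma-voom, and 5 higher and 2 lower with DESeq2. Leaving out 1 line gave 0 to 4 higher and 0 to 4 lower. Over all genes 335 were called, 223 with no filter, 2098 with DESeq2, 0 with the 2 lines averaged, and 0 to 1913 when 1 line was left out. For the other lists DESeq2 called 8 making and processing genes lower, 2 receptors higher and 2 lower, 3 basement membrane partners higher and 2 lower, and 1 fibril-binding gene higher and 1 lower. Limma-voom called 2 basement membrane partners lower, and averaging the 2 lines called 0. When 1 line was left out these lists had 0 to 11 making genes lower, 0 to 2 receptors higher and 0 to 1 lower, 0 to 2 partners higher and 0 to 3 lower, and 0 to 1 fibril-binding genes higher and 0 to 2 lower.

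Of 318 recomputed log2 fold changes of the 23 members, 288 were counted as keeping direction and side of the threshold, 16 passed it and 14 turned, in 6 members. The 288 include 5 DESeq2 values that kept direction but had no adjusted p, so no side of the threshold. Col4a6 turned to 0.30 without 16IC 1, 0.28 without 16IC 2, 0.0071 without EIC 2 and 0.29 with the 2 lines averaged. Col6a3 turned to 0.32, 0.31, 1.04 and 0.32 in the same fits. Col6a1 and Col6a2 turned without EIC 2 (1.98 and 3.01). Col12a1 turned without 16IC 3 (-0.01) and without EIC 3 (-0.033), and Col16a1 without 16IC 3 (-2.43) and with limma-voom (-0.97). The cause was not tested. Of the members that turned, the values with 1 line left out ranged from -1.84 to 0.30 for Col4a6, -9.77 to 1.98 for Col6a1, -10.64 to 3.01 for Col6a2, -7.38 to 1.04 for Col6a3, -0.033 to 6.51 for Col12a1 and -2.43 to 0.99 for Col16a1. Shares of counts moved by less than the spread between lines when taken of protein-coding genes. TPM computed from the counts was 2.90 to 3.74 times the deposited FPKM in each line. No paired analysis was possible because the labels give no numbers shared between the groups.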
